A study of Mus musculus with 4 samples.

Results

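Genes for 8 calcium-binding and calcium-sensor proteins were followed in nuclei of the mouse posterior substantia innominata, a basal forebrain region. They are Calb1 (calbindin), Calb2 (calretinin), Pvalb (parvalbumin), Necab1, Necab2, Hpca (hippocalcin), Hpcal1 (hippocalcin-like 1) and Ncald (neurocalcin delta), 8 of the 31899 genes listed in all 4 libraries. The genes were chosen by name, as calcium-binding proteins of neurons, with earlier results of these data known. Nuclei were wild-type and came from mice aged 8 weeks, with 2 male and 2 female libraries, and the series was designed to compare neurons of this region between the sexes. Separate animals are not stated for the libraries of either sex, so every p-value rests only on scatter among these libraries, which may be technical. For classes and subsets it is the scatter left once differences between libraries are removed.

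Calcium that enters a neuron is bound within the cytosol by proteins with EF hands, a helix-loop-helix fold that holds a calcium ion. Buffers such as calbindin, calretinin and parvalbumin mainly limit the size and duration of calcium signals, and each is a classical marker of groups of interneurons and projection neurons. Sensors such as hippocalcin and neurocalcin delta change shape on binding calcium, expose a fatty acid and move to membranes, where they act on other proteins. In the basal forebrain, calbindin, calretinin and parvalbumin are widely used to describe groups of neurons.

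On the mouse build GRCm38 (mm10) with the GENCODE vM21 annotation, all 8 are protein-coding genes. Calb1 lies on chromosome 4 from 15881264 to 15908064 on the plus strand. Necab1 lies on the same chromosome from 14952245 to 15149794 on the minus strand, as does Hpca from 129111570 to 129122036. On chromosome 8, Calb2 spans 110137502 to 110168210 on the minus strand and Necab2 spans 119446719 to 119472640 on the plus strand. On chromosome 15, Pvalb spans 78191114 to 78206400 and Ncald spans 37366175 to 37792570, both on the minus strand. Hpcal1 spans 17690856 to 17791933 on the plus strand of chromosome 12. Ncald is the longest of these genes, at 426396 base pairs, and Hpca the shortest, at 10467, so levels are compared between nuclei and never between genes.

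The libraries held between 9157 and 10965 barcodes, of which 38868 of 40532 passed the limits of 500 to 8000 genes and under 5% mitochondrial counts. Nuclei were classed by marker counts of unique molecular identifiers (UMIs), and 21893 fell into exactly 1 class: 13560 GABAergic, 938 with Slc17a6, 87 with Slc17a7, 376 cholinergic, 4561 oligodendrocyte, 820 astrocyte, 795 oligodendrocyte precursor (OPC) and 756 microglial nuclei. Slc17a6 and Slc17a7 encode vesicular glutamate transporters, so both of those classes are glutamatergic. Depth moved with sex, with medians of 10406 and 10015 UMIs per kept nucleus in the males against 4192 and 3806 in the females. Nuclei without a class made up 19.7% and 21.0% of the kept nuclei of the males and 47.7% and 46.2% of those of the females. The 2 male libraries shared 23 barcodes, the 2 female libraries 35, and no barcode was shared between the sexes. In GABAergic nuclei the males differed by a mean chi-square per gene of 2.60 on 1 degree of freedom, against 89.3 between the females, so the males were far more alike.

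The classes carried the markers of their names, with 2 limits. The summed level of 6 cholinergic markers ranged over libraries from 322 to 421 UMIs per 1000000 (CPM) in cholinergic nuclei against 55.2 to 99.2 in GABAergic nuclei. The 4 markers of pallial glutamatergic neurons reached 92.3 to 105 CPM in the Slc17a7 class and at most 16.04 in the other neuron classes. The 3 GABAergic markers were not particular to neurons, at 219 to 492 CPM in GABAergic nuclei and 354 to 654 in astrocytes. The 4 Slc17a6 class markers were higher in astrocytes, at 249 to 440 CPM, than in the Slc17a6 class, at 79.6 to 150, and overlapped that class in microglia (129 to 239), oligodendrocytes (99.7 to 183) and OPCs (115 to 144). These values do not bear on the class genes themselves, which set the classes.

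Calb1 was highest in glutamatergic Slc17a6 nuclei and GABAergic nuclei and lowest among neurons in Slc17a7 nuclei. Levels in male 1, male 2, female 1 and female 2 were 52.3, 54.5, 69.9 and 61.6 CPM in Slc17a6 nuclei. In the same order, GABAergic nuclei held 57.3, 59.2, 53.7 and 45.7 CPM and cholinergic nuclei 33.1, 42.9, 44.6 and 28.3 CPM. Slc17a7 nuclei, measured in 3 libraries because female 1 had 2 of them, held 14.3, 18.8 and 11.8 CPM in male 1, male 2 and female 2. The 3 Slc17a7 values lay below every value of the other neuron classes, while GABAergic and Slc17a6 values overlapped. Each neuron class was tested against the mean of the other 3 within libraries with edgeR's quasi-likelihood test, which puts the same populations on both sides of several comparisons. Calb1 was higher in Slc17a6 nuclei by a log2 fold of 0.80 ± 0.13 (SE; adjusted p = 4.05e-05) and in GABAergic nuclei by 0.66 ± 0.12 (adjusted p = 0.000112), and fell by 1.53 ± 0.26 in Slc17a7 nuclei (adjusted p = 4.08e-05). These 3 calls were lost when nuclei were thinned to 2000 UMIs after classing, with adjusted p = 0.243, 0.158 and 0.237 and folds of 0.72, 0.68 and -1.60.

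Calb2, the gene of calretinin, had its highest level in the Slc17a6 class, although the more numerous GABAergic nuclei held more of its UMIs. Its level there was 12.2, 13.05, 20.6 and 17.2 CPM in male 1, male 2, female 1 and female 2. GABAergic nuclei held 3.02 to 5.36 CPM, cholinergic nuclei 0.949 to 4.82 and Slc17a7 nuclei 0 to 4.77, so no library of another neuron class reached the lowest Slc17a6 value. The fold was 2.22 ± 0.31 on the log2 scale (adjusted p = 2.08e-06), and it was 2.99 without male 1. A share of 11.6% to 15.99% of Slc17a6 nuclei had a Calb2 UMI, against 0.455% to 1.65% of astrocytes, whose depth was lower (medians over libraries of 1951 to 3528 UMIs against 5856 to 12278.5). Thinned to 2000 UMIs, the shares were 2.03% to 3.65% in Slc17a6 nuclei and 0% to 2.21% in astrocytes, and at that depth Calb2 no longer passed the filter on low counts.

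Pvalb was detected at very low levels in every class but Slc17a7, where no UMI was seen in 87 nuclei, too few to set that class apart. The 4 libraries held 71, 50, 31 and 49 Pvalb UMIs in all kept nuclei together, and no nucleus had more than 5. In GABAergic nuclei, where parvalbumin would mark fast-spiking interneurons and pallidal cells, levels were 0.758, 0.407, 0.467 and 0.940 CPM. A Pvalb UMI was found in 0.818%, 0.549%, 0.292% and 0.585% of those nuclei, and in 0.0831% to 0.197% of oligodendrocytes, which are shallower. Other genes listed for fast-spiking and pallidal cells (Kcnc1, Kcnc2, Tac1, Lhx6 and Erbb4) summed to 1698 to 2560 CPM in the same GABAergic nuclei and none was at 0, but this sum did not set them apart, with 2119 to 2363 CPM in cholinergic nuclei and 2476 to 3409 in OPCs. Pvalb passed the filter on low counts in only 1 fit, the comparison of the sexes in GABAergic nuclei.

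Necab1, a neuronal calcium-binding protein with EF hands, was low in cholinergic nuclei. Levels there were 86.1, 88.6, 94.9 and 79.7 CPM in male 1, male 2, female 1 and female 2. GABAergic nuclei held 272, 272, 272 and 289 CPM, Slc17a6 nuclei 196, 172, 204 and 191 CPM, and Slc17a7 nuclei 283, 304 and 284 CPM in the 3 libraries that had enough of them. The 4 cholinergic values lay below every other neuronal value, and the Slc17a6 values lay between those and the GABAergic values. In the fit, Necab1 fell by 1.46 ± 0.13 on the log2 scale in cholinergic nuclei (adjusted p = 8.07e-11). It was higher by 0.63 ± 0.11 in GABAergic nuclei (adjusted p = 4.96e-05) and by 0.90 ± 0.15 in Slc17a7 nuclei (adjusted p = 1.59e-05). Gm11844, an antisense gene that lies within Necab1, held 4.73, 5.01, 42.7 and 11.4 CPM in GABAergic nuclei, highest in female 1, and its part in the Necab1 counts was not tested.

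Necab2, a relative of Necab1 known to bind membrane receptors, did not differ between neuron classes by the test. Its levels were 26.6 to 34.7 CPM in GABAergic, 22.1 to 34.4 in Slc17a6, 19.4 to 38.8 in cholinergic and 7.51 to 17.7 in Slc17a7 nuclei. The 3 Slc17a7 values lay below every other one, yet the fold of -0.91 ± 0.36 on the log2 scale had an adjusted p of 0.105.

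Hpca and Hpcal1 encode closely related sensors, and their levels went opposite ways in cholinergic nuclei. Hpcal1 stood at 77.7, 78.3, 87.3 and 80.7 CPM there in male 1, male 2, female 1 and female 2. Its next highest neuronal class, Slc17a7, held 54.1, 50.7 and 53.2 CPM, and GABAergic nuclei held 28.6, 28.2, 22.3 and 27.2 CPM. Every cholinergic value exceeded every value of the other 3 classes. The fold was 1.16 ± 0.11 on the log2 scale in cholinergic nuclei (adjusted p = 1.76e-10), and Hpcal1 fell by 1.09 ± 0.10 in GABAergic nuclei (adjusted p = 5.07e-10). In Slc17a6 nuclei it fell by 0.39 ± 0.11 (adjusted p = 0.0242), a call that was lost without male 1 (-0.37, adjusted p = 0.246) and without male 2 (-0.28, adjusted p = 0.400).

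Hpca was lowest in cholinergic nuclei, at 2.41, 4.57, 4.74 and 1.05 CPM, values that rest on 1 to 8 UMIs per library. GABAergic nuclei held 11.1, 10.8, 9.29 and 13.1 CPM and Slc17a6 nuclei 11.1, 15.2, 13.7 and 17.2 CPM, all above the cholinergic values. The drop in cholinergic nuclei was the deepest of this gene, with a log2 fold of -2.02 ± 0.35 (adjusted p = 2.92e-05). Slc17a7 nuclei held 14.3, 22.5 and 11.8 CPM, and Hpca was higher there by 1.22 ± 0.40 on the log2 scale (adjusted p = 0.0400). This last call was lost without male 1 (1.17, adjusted p = 0.163), male 2 (0.95, adjusted p = 0.433) or female 1 (1.23, adjusted p = 0.0554).

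Among neuron classes, Ncald was highest in Slc17a7 nuclei, at 515, 550 and 580 CPM in male 1, male 2 and female 2. Slc17a6 nuclei held 304, 327, 128 and 317 CPM in male 1, male 2, female 1 and female 2, cholinergic nuclei 290, 274, 112 and 357 CPM, and GABAergic nuclei 212, 214, 73.9 and 169 CPM. Female 1 was the lowest library in each of these classes, and within every library GABAergic nuclei held less than the other neuron classes. By the fit, which compares classes within libraries, Ncald was higher in Slc17a7 nuclei by 1.11 ± 0.11 on the log2 scale (adjusted p = 2.52e-09) and fell by 1.01 ± 0.10 in GABAergic nuclei (adjusted p = 1.86e-09). Without female 1 these folds were 1.03 (adjusted p = 8.40e-08) and -0.97 (adjusted p = 1.85e-07).

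**Figure D1:**
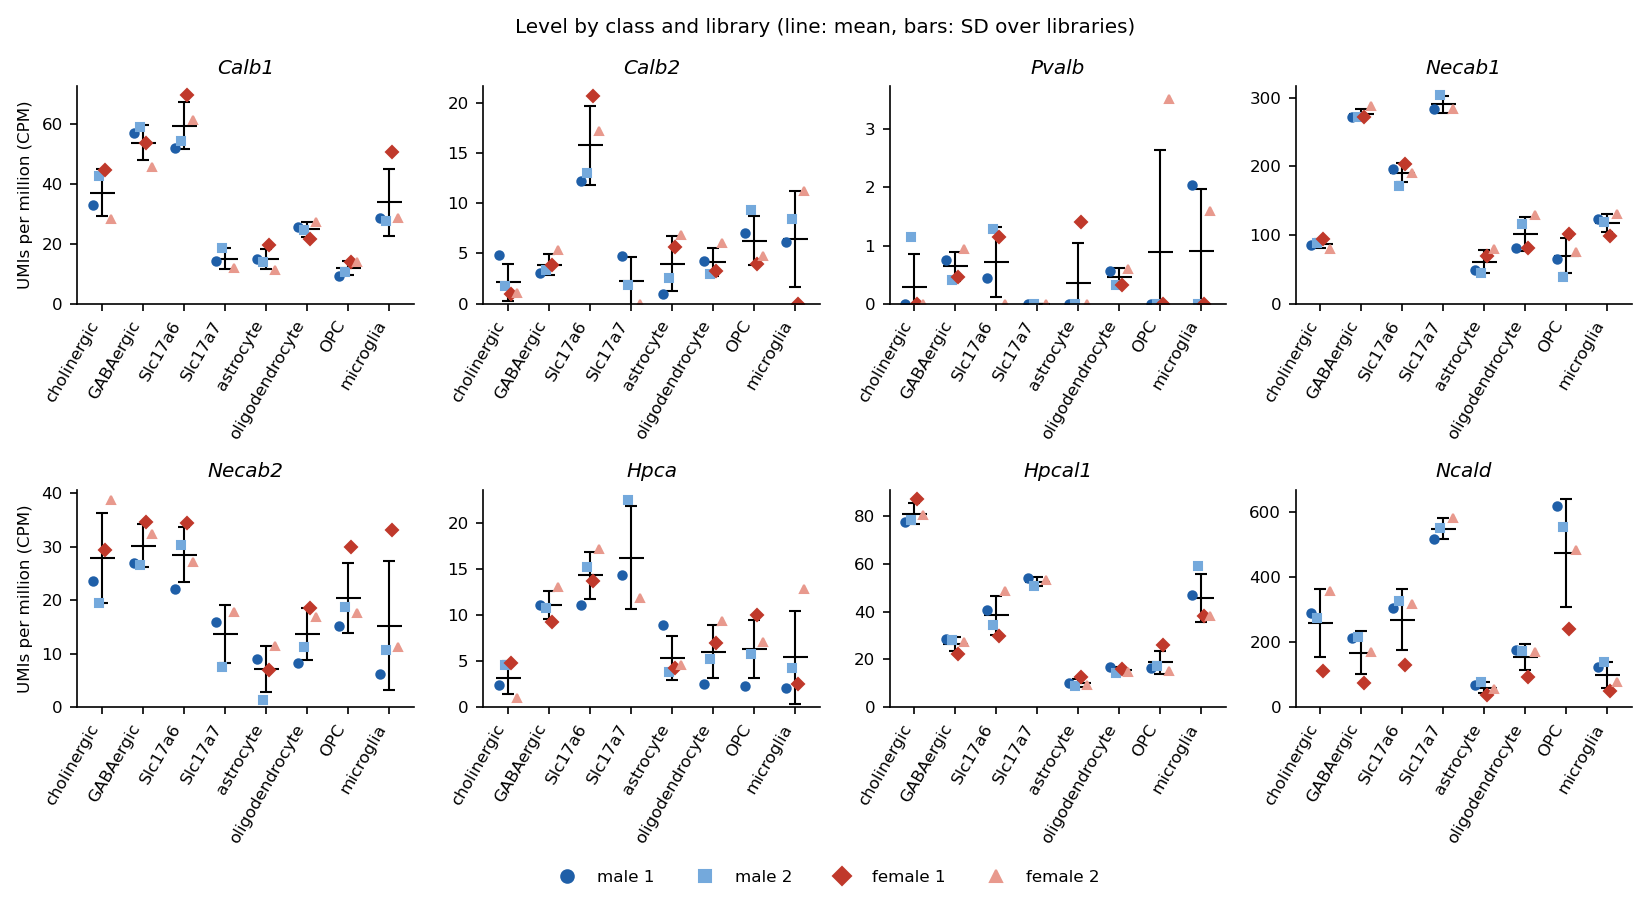
Level of each gene in CPM (y axis, linear, from 0) in the 8 classes (x axis). Points are libraries, lines are means and bars are SDs over the 4 libraries (3 for Slc17a7). Hpcal1 stands apart in cholinergic nuclei, and Calb2 in Slc17a6 nuclei stands apart among neurons; the means of Ncald are highest in Slc17a7 nuclei and OPCs, whose range overlaps those of other classes, and Pvalb stays under 4 CPM.

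In all, 14 of 28 tests of 7 genes in 4 neuron classes passed an adjusted p of 0.05, 8 higher and 6 lower. The share of all 12782 tested genes called was 21.1% in cholinergic nuclei, where 3 of 7 members were called, and 12% in GABAergic nuclei, where 4 of 7 were. In Slc17a6 nuclei 3 of 7 members were called against 8.94% of all genes, and in Slc17a7 nuclei 4 of 7 against 13.2%. The median log2 fold of the 7 members was -0.05 in cholinergic, 0.16 in GABAergic, 0.32 in Slc17a6 and 0.33 in Slc17a7 nuclei, beside 0.04, 0.04, 0.01 and -0.06 over all genes.

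**Figure D2:**
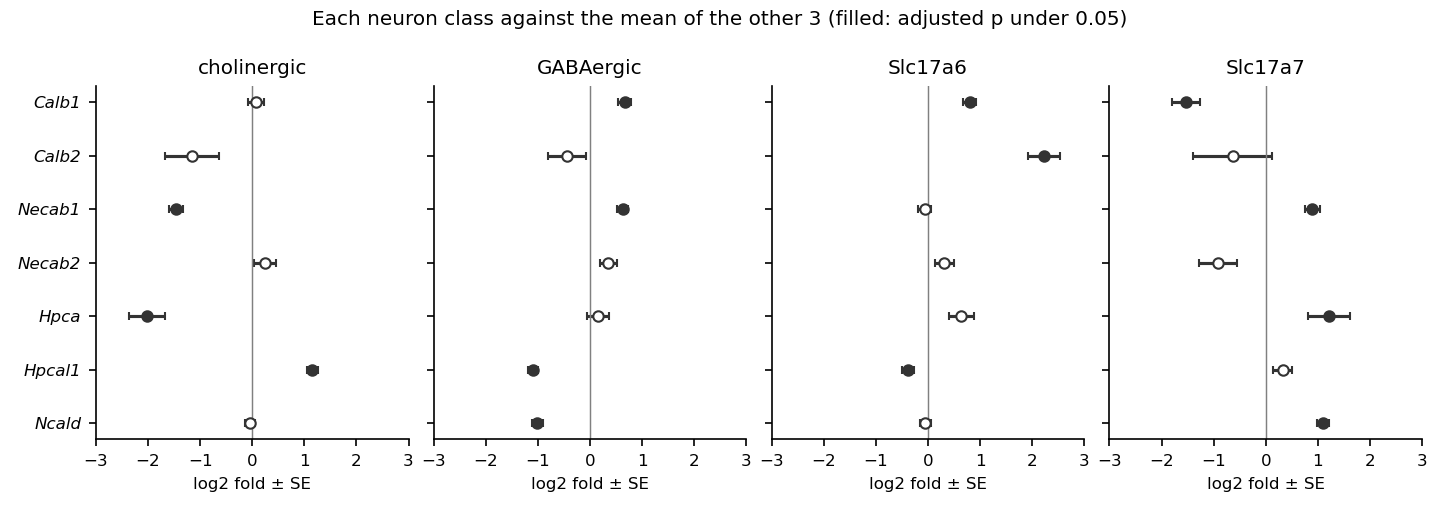
Log2 fold ± SE (x axis) of 7 genes (y axis) in each neuron class against the mean of the other 3, from edgeR; filled points passed an adjusted p of 0.05. Hpca lies at -2.02 and Hpcal1 at 1.16 in cholinergic nuclei, and Calb2 at 2.22 in Slc17a6 nuclei.

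Other genes of the calcium-sensor and EF-hand families were counted from 3 lists. The shares of all genes called were 21.1% in cholinergic, 12% in GABAergic, 8.94% in Slc17a6 and 13.2% in Slc17a7 nuclei. Of 10 other neuronal calcium sensor genes, 7 were tested, and in cholinergic nuclei 6 fell and none was called higher (median log2 fold -1.07, beside 0.04 over all genes). Kcnip3, which encodes a potassium channel-interacting sensor, was the largest of these drops at -2.16 ± 0.18 (adjusted p = 6.72e-12), followed by Kcnip2 at -1.39 ± 0.15 (adjusted p = 5.36e-09). Kcnip3 stood at 12.05, 18.3, 24.7 and 14.7 CPM in cholinergic nuclei against means of 59.3 to 92.9 CPM over the other neuron classes of the same libraries. In Slc17a7 nuclei 3 of the 7 rose and 1 fell, with Kcnip3 higher by 2.02 ± 0.17 (adjusted p = 3.43e-11) and Kcnip1 lower by a fold of -1.20 ± 0.27 (adjusted p = 0.00148). Kcnip1 stood there at 30.2 and 71.3 CPM in the males but at 254 CPM in female 2, where the other neuron classes averaged 244. In GABAergic nuclei 3 of 7 rose, led by Kcnip1 at 0.59 ± 0.16 (adjusted p = 0.0113) and Kcnip2 at 0.50 ± 0.10 (adjusted p = 0.000693). Kcnip1 stood there at 215, 218, 237 and 243 CPM in male 1, male 2, female 1 and female 2. The other neuron classes averaged 154, 165, 208 and 248 CPM, so female 2 showed no rise. In Slc17a6 nuclei 2 of 7 rose, Kcnip1 by 1.33 ± 0.16 (adjusted p = 2.12e-07) and Vsnl1, the gene of visinin-like 1, by 0.52 ± 0.12 (adjusted p = 0.00263).

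Of 30 other EF-hand buffers and sensors, 23 were tested. In cholinergic nuclei 2 rose and 7 fell, where 21.1% of all genes were called, with the largest drops in Caln1, which encodes the calmodulin-like calneuron 1 (-1.20 ± 0.15, adjusted p = 1.18e-07), and Efhd2 (-1.004 ± 0.35, adjusted p = 0.0336). In Slc17a7 nuclei 3 rose and 1 fell, led by the calmodulin-like Cabp1 (1.69 ± 0.18, adjusted p = 4.13e-09). In GABAergic nuclei Caln1 rose (0.53 ± 0.13, adjusted p = 0.00373) and Cabp1 fell (-0.60 ± 0.11, adjusted p = 0.000179), and in Slc17a6 nuclei only Tesc, which encodes tescalcin, was called, at -1.13 ± 0.23 (adjusted p = 0.000889). Over all genes, 12% were called in GABAergic, 8.94% in Slc17a6 and 13.2% in Slc17a7 nuclei. The counts of this list in those 3 classes are therefore not read as a result.

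All 25 calmodulin targets were tested, beside called shares over all genes of 21.1% in cholinergic, 12% in GABAergic, 8.94% in Slc17a6 and 13.2% in Slc17a7 nuclei. In cholinergic nuclei 5 rose and 7 fell, among them Nos1, the neuronal nitric oxide synthase, at 1.87 ± 0.17 (adjusted p = 9.48e-11), and Nrgn, the calmodulin-binding neurogranin, at -1.998 ± 0.20 (adjusted p = 6.00e-10). In GABAergic nuclei 6 rose and 2 fell, with Pde1c, a calmodulin-dependent phosphodiesterase, at 1.33 ± 0.26 (adjusted p = 0.000386) and Nos1 at -1.19 ± 0.23 (adjusted p = 0.000330). In Slc17a6 nuclei 2 rose and 5 fell, with Nos1 at 1.71 ± 0.17 (adjusted p = 2.01e-09) and Pde1a at -1.21 ± 0.16 (adjusted p = 5.07e-07). In Slc17a7 nuclei 10 rose and 5 fell, and the largest changes were in Pde1c (-2.81 ± 0.55, adjusted p = 0.000282) and Nos1 (-2.40 ± 0.37, adjusted p = 8.85e-06). These levels were low and came from 36, 27 and 22 nuclei in male 1, male 2 and female 2. Pde1c stood at 9.54 and 5.63 CPM in the males but at 71.0 CPM in female 2, where the other neuron classes averaged 129. Nos1 stood at 6.36, 13.1 and 29.6 CPM, against 81.9, 85.7 and 94.8 over the other neuron classes.

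GABAergic nuclei were split by Drd1 and Drd2, the dopamine receptor genes of striatal projection neurons, by the transcription factor gene Tshz1, by Moxd1, a monooxygenase-like gene, and by the neuropeptide gene Sst. Over libraries the split gave 18 to 150 Drd1, 58 to 180 Drd2, 58 to 278 Tshz1, 53 to 202 Moxd1 and 5 to 48 Sst nuclei, with 2449 to 2984 that met none. Female 1 had 18 Drd1 and 5 Sst nuclei and was left out of those populations, which were fitted on 3 libraries. Adora2a, a marker of Drd2 neurons, stood at 37.0 to 39.5 CPM in the Drd2 subset and at most 5.80 CPM in any other, and Foxp2 reached 789 to 1358 CPM in the Tshz1 subset. The 3 markers listed for Sst neurons overlapped between the Sst subset, at 42.4 to 110 CPM, and the Moxd1 subset, at 54.4 to 103 CPM. Each subset was tested against the mean of the other 5 populations, again within libraries.

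Calb1 marked the Moxd1 subset. It stood at 170, 204, 145 and 201 CPM there in male 1, male 2, female 1 and female 2, and at 27.8, 30.5, 15.1 and 21.2 CPM in the Tshz1 subset. The lowest Moxd1 value lay above the highest value of all other subsets, 80.5 CPM in Drd2 nuclei of female 2, and the 4 Tshz1 values lay below every other. The fold was 1.93 ± 0.10 on the log2 scale in Moxd1 nuclei (adjusted p = 3.21e-18), and Calb1 fell by 1.34 ± 0.13 in Tshz1 nuclei (adjusted p = 7.09e-10). At an equal depth of 2000 UMIs, 28.5% to 34.6% of Moxd1 nuclei had a Calb1 UMI, against 2.27% to 6.64% of Tshz1 nuclei and 1.65% to 5% of astrocytes. Drd1 nuclei differed among libraries, at 70.4 and 65.0 CPM in the males and 34.8 CPM in female 2. Calb2 was called in no subset, with 3.38 to 7.34 CPM in Moxd1 nuclei and 0 to 5.19 in the others named.

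Necab1 was highest in Tshz1 nuclei, at 348, 398, 465 and 348 CPM, and in Drd1 nuclei, at 335, 340 and 419 CPM. The ranges of these subsets overlapped with each other, and both lay above the Moxd1 values of 234, 198, 227 and 277 CPM. Sst nuclei, at 253, 298 and 339 CPM in male 1, male 2 and female 2, overlapped the Drd1 range. Necab1 was higher in Tshz1 nuclei by 0.46 ± 0.07 on the log2 scale (adjusted p = 1.31e-05) and in Drd1 nuclei by 0.36 ± 0.08 (adjusted p = 0.00440), and fell by 0.48 ± 0.08 in Moxd1 nuclei (adjusted p = 3.41e-05). The Drd1 call was lost without male 1 (0.37, adjusted p = 0.111). Necab2 stood at 40.9, 37.1, 57.4 and 51.9 CPM in Drd2 nuclei, every value above those of the other subsets (16.5 to 36.6 CPM). It was higher there by 0.80 ± 0.11 on the log2 scale (adjusted p = 7.78e-07) and fell by 0.50 ± 0.14 in Moxd1 nuclei (adjusted p = 0.00980). The Moxd1 call was lost without male 2 (-0.42, adjusted p = 0.152) and the direction turned after thinning to 2000 UMIs (1.03, adjusted p = 0.593).

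Hpca was highest in the subsets with dopamine receptor genes. Drd2 nuclei held 19.5, 22.0, 18.3 and 29.9 CPM and Drd1 nuclei 15.9, 15.3 and 19.3 CPM, while Tshz1, Moxd1 and Sst nuclei held at most 12.1. The fold was 1.20 ± 0.16 on the log2 scale in Drd2 nuclei (adjusted p = 3.61e-07). That in Drd1 nuclei, 0.64 ± 0.20, passed narrowly (adjusted p = 0.0485) and was lost without male 1 (0.70, adjusted p = 0.310), male 2 (0.58, adjusted p = 0.371) or female 2 (0.67, adjusted p = 0.0874). Hpcal1 was called in no subset, and its levels were 28.3 to 54.9 CPM in Sst nuclei and 12.2 to 33.1 in the Drd1, Drd2, Tshz1 and Moxd1 nuclei.

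Ncald was higher in Tshz1 nuclei by 0.57 ± 0.07 on the log2 scale (adjusted p = 2.36e-07) and in Moxd1 nuclei by 0.46 ± 0.08 (adjusted p = 2.80e-05), at 289, 298, 108 and 206 and at 251, 275, 104 and 267 CPM. It fell by 0.51 ± 0.09 in Drd1 nuclei (adjusted p = 0.000178), which held 144, 170 and 110 CPM. It fell by 0.30 ± 0.08 in Drd2 nuclei (adjusted p = 0.00674), which held 171, 170, 48.8 and 149 CPM, and this call was lost without male 1 (-0.28, adjusted p = 0.105), male 2 (-0.32, adjusted p = 0.0532) or female 1 (-0.25, adjusted p = 0.0583). The other 3 Ncald folds stayed past the threshold without female 1, at 0.57, 0.43 and -0.52.

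**Figure D3:**
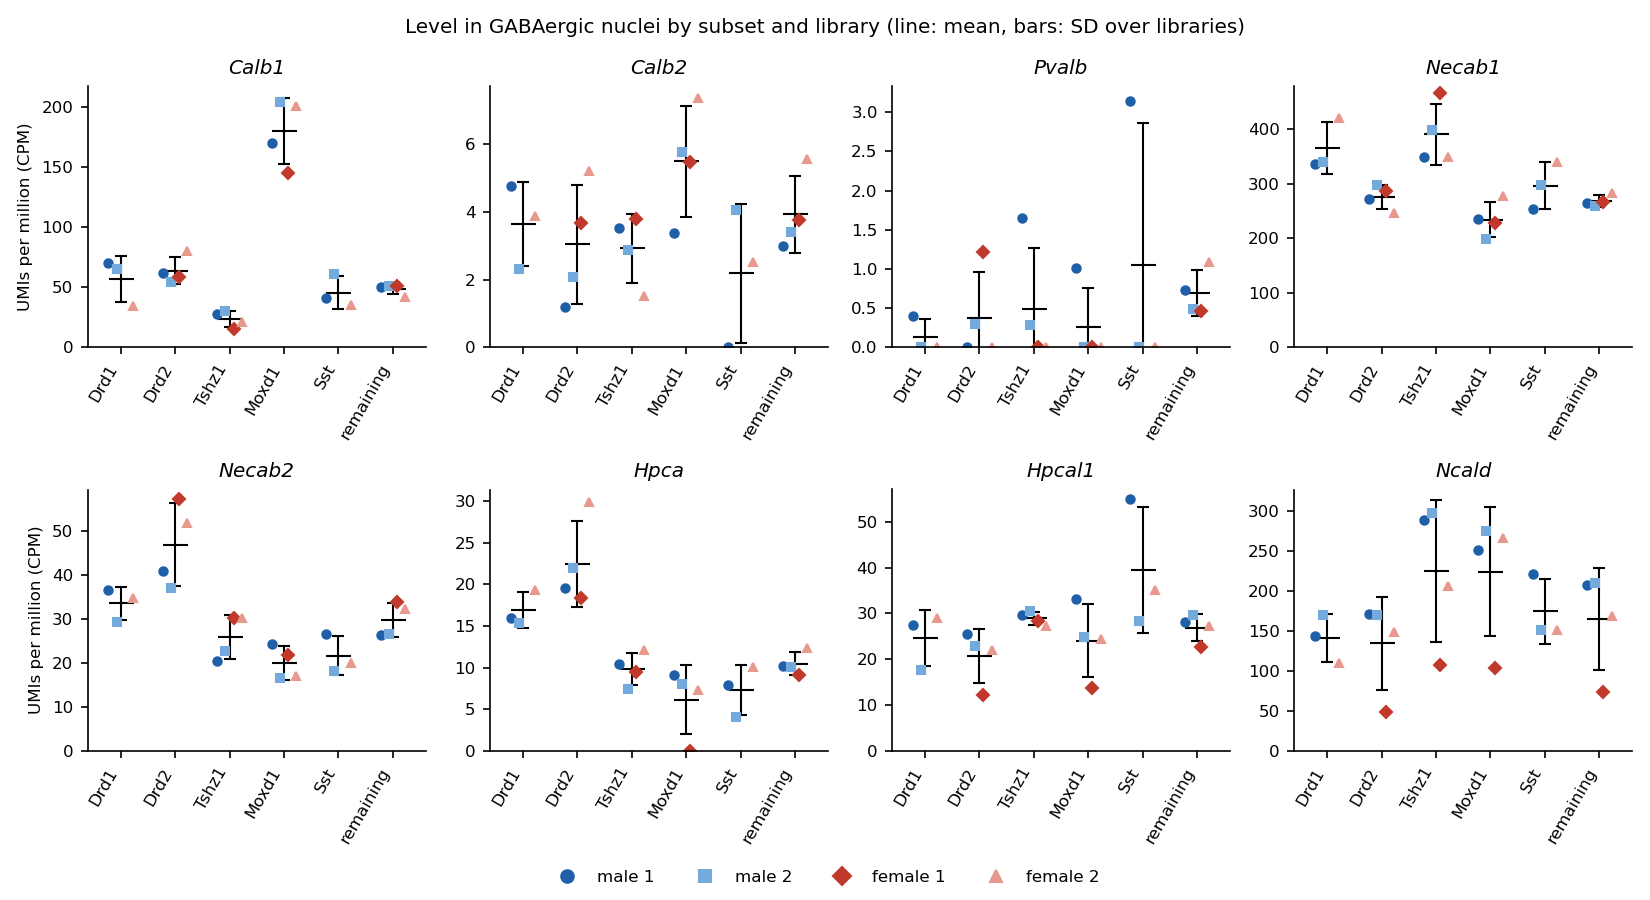
Level of each gene in CPM (y axis, linear, from 0) in GABAergic nuclei split by subset (x axis; remaining nuclei met no subset minimum). Points are libraries, lines are means and bars are SDs over libraries (3 for Drd1 and Sst). Calb1 stands apart in Moxd1 nuclei and Necab2 in Drd2 nuclei.

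By the test, 13 of 35 member-by-subset comparisons were called. Called members numbered 4 of 7 in Moxd1 nuclei against 17.4% of all 13392 genes tested, 3 of 7 in Drd2 nuclei against 13.9%, 3 of 7 in Tshz1 nuclei against 10.9% and 3 of 7 in Drd1 nuclei against 5.46%. None was called in Sst nuclei, against 3.1% of all genes. There, 3 members had an unadjusted p under 0.05 by edgeR, and DESeq2 called 12 of the 35 comparisons in all. Of the 25 calmodulin targets, 13 fell and 6 rose in Moxd1 nuclei (median -0.34, beside 0.02 over all genes), with 6 not called. In Drd1 nuclei 7 of the 25 rose, none fell and 18 were not called, and in Drd2 nuclei 10 rose, 4 fell and 11 were not called. Of 8 other neuronal calcium sensor genes tested, 4 rose and 2 fell in Drd2 nuclei and 4 rose and 1 fell in Tshz1 nuclei.

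In glia, all but 1 of the called differences from neurons were drops. Each glial class was tested against the mean of the 4 neuron classes, which share their neurons across the tests. Astrocytes had 5 of 7 members called, all lower, against 55.6% of all genes, and oligodendrocytes 6 of 7, all lower, against 62.4%. Microglia had 4 of 7, all lower, against 52.1%, and OPCs 4 of 7, of which 3 were lower, against 45.6%. With such shares over all genes, these counts of members are not read as a result.

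The exception was Ncald in OPCs. Its level was 618, 552, 239 and 483 CPM in male 1, male 2, female 1 and female 2, against 59.999 ± 16.8 (SD, n = 4) in astrocytes and 153 ± 39.6 in oligodendrocytes. Within each library OPCs held 2.58 to 3.23 times the Ncald level of GABAergic nuclei, the lowest neuron class. They did not stand above Slc17a7 nuclei, which held 515, 550 and 580 CPM in male 1, male 2 and female 2. Against the mean of the neuron classes the fold was 0.72 ± 0.10 on the log2 scale (adjusted p = 8.10e-08), and it was 0.67 without female 1 (adjusted p = 4.61e-06). At 2000 UMIs per nucleus, 39.7% to 65.2% of OPCs had a Ncald UMI, against 5.52% to 10.99% of astrocytes.

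Neuronal RNA was present in the glial classes and was read beside these levels. The 5 neuron markers Rbfox3, Snap25, Syt1, Stmn2 and Meg3 stood at 0.141 to 0.436 of their GABAergic level in astrocytes, 0.255 to 0.622 in oligodendrocytes, 0.137 to 0.532 in OPCs and 0.253 to 0.763 in microglia, and none was at 0. Calb1 in astrocytes, oligodendrocytes and OPCs lay within those ranges (0.233 to 0.365, 0.405 to 0.602 and 0.164 to 0.309), as did Necab1 in all 4 glial classes (0.146 to 0.454). The part of this neuronal signal in the glial levels was not tested. Hpcal1 in microglia lay above its range, at 1.41 to 2.11 of the GABAergic level, with 47.0, 59.3, 38.2 and 38.4 CPM, and was not called against the mean of the neuron classes (-0.28 ± 0.15, adjusted p = 0.149). Every library also lay above the neuron-marker range in OPCs for Calb2 (0.877 to 2.81), Hpcal1 (0.561 to 1.16) and Necab2 (0.545 to 0.862), and in oligodendrocytes for Calb2 (0.857 to 1.41) and Ncald (0.810 to 1.27). By edgeR's test against the mean of the neuron classes, however, Hpcal1 in OPCs was lower (-1.43 ± 0.17, adjusted p = 9.37e-09). So was Ncald in oligodendrocytes (-0.82 ± 0.10, adjusted p = 6.57e-09). Calb2 in OPCs (0.40 ± 0.44, adjusted p = 0.498) and oligodendrocytes (-0.21 ± 0.35, adjusted p = 0.620) and Necab2 in OPCs (-0.41 ± 0.24, adjusted p = 0.173) were not called.

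**Figure D4:**
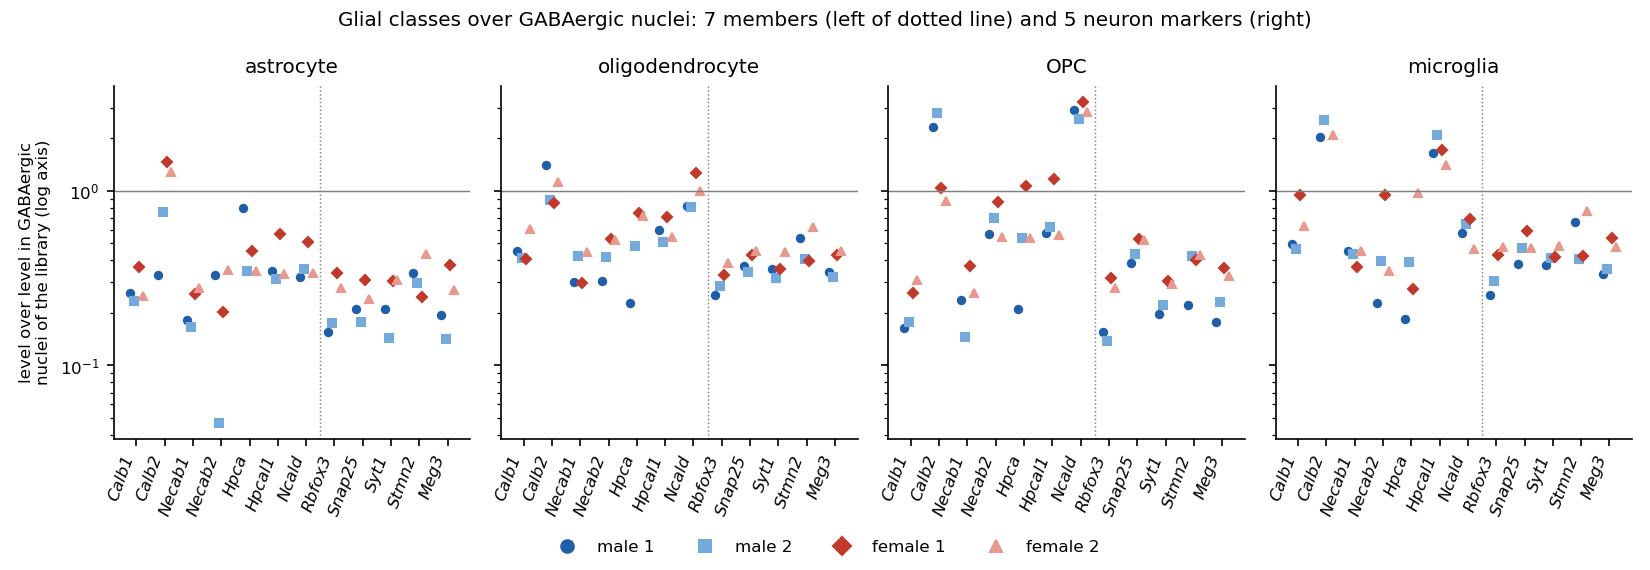
Level in a glial class over the level in GABAergic nuclei of the same library (y axis, log scale) for 7 members and 5 neuron markers (x axis). Points are libraries, and values of 0 are not drawn. Ncald in OPCs lies at 2.58 to 3.23 and the neuron markers lie under 1 in each glial class.

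The low Hpca in microglia (-1.03 ± 0.44, adjusted p = 0.0479) was lost without male 1 (-0.86, adjusted p = 0.114), male 2 (-0.82, adjusted p = 0.231) or female 1 (-0.90, adjusted p = 0.128), and the fold was -2.07 without female 2 (adjusted p = 0.00520). In oligodendrocytes the drop in Hpca (-0.80 ± 0.25, adjusted p = 0.00568) was lost without male 2 (-0.67, adjusted p = 0.0903). The drop of Necab2 in microglia (-1.07 ± 0.30, adjusted p = 0.00309) was lost without male 1 (-0.81, adjusted p = 0.0588) and was -1.67 without female 1 (adjusted p = 0.000462).

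No member was called between males and females by edgeR's test in the classes tested, which leave out Slc17a7. With 2 libraries per sex, the lack of a call does not show that the sexes were alike. There were 39 tests in 7 classes, and 1 had an unadjusted p under 0.05, Ncald in microglia (log2 fold male over female 0.99 ± 0.30, adjusted p = 0.324). DESeq2 also called 0 of 39. Among all genes tested, 0.00545% were called in GABAergic nuclei, 0.0654% in Slc17a6, 0.0498% in cholinergic, 0.023% in oligodendrocyte, 0.0554% in astrocyte, 0.095% in OPC and 0.05% in microglial nuclei. In GABAergic nuclei the male-over-female log2 folds were 0.91 ± 0.39 for Ncald, 0.30 ± 0.16 for Calb1, 0.28 ± 0.13 for Hpcal1, 0.06 ± 0.21 for Hpca and 0.03 ± 0.09 for Necab1. They were -0.25 ± 0.14 for Necab2, -0.46 ± 0.26 for Calb2 and -0.18 ± 0.54 for Pvalb. Depth was lower in both female libraries, and each of them had its own Cell Ranger version and gene list, unlike those that the males shared, so the part of these in a sex difference cannot be told apart. The difference of the sex effect from that in GABAergic nuclei was called for no member in Slc17a6, Slc17a7 or cholinergic nuclei (0 of 21, with 3 at an unadjusted p under 0.05, and 0 of 21 by DESeq2), against 0.0439%, 0.732% and 0.117% of all genes.

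With female 1 or female 2 left out, some members were called by sex, most often Ncald. In those fits the spread came from the 2 males alone, which differed least. Many genes beyond the members were called there as well, so these calls are not read as a result and only folds are given. In GABAergic nuclei the fold of Ncald was 0.55 without female 1 and 1.56 without female 2, and that of Calb1 0.57 and 0.15. For Ncald in cholinergic nuclei, the difference of the sex effect from that in GABAergic nuclei was -0.71 without female 1.

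Ncald was low in the library female 1 in every class. There, it stood at 0.364 to 0.561 of the mean of the other 3 libraries in the 7 classes measured, and female 1 was the lowest library in each. The other members lay on both sides of 1 across classes. The gene list of female 1 holds Gm49397, a processed transcript on the strand of Ncald from 37432477 to 37734335 on chromosome 15, which covers 70.8% of the span of Ncald and is listed in no other library. Gm49397 itself had 1 UMI in the GABAergic nuclei of female 1 and 0 in its other classes, and Gm49311, on the same strand within Ncald and also listed only in female 1, had 60 UMIs in GABAergic nuclei. Genes on the opposite strand within Ncald that every library lists were also high in GABAergic nuclei of female 1. There, 4930447A16Rik held 4.98 CPM, against 0.635, 0.555 and 0.752 in male 1, male 2 and female 2. Gm15942 held 4.88 CPM, against 0.705, 0.703 and 1.36. A count of UMIs assigned to Gm49397 or Gm49311 does not show how reads shared with Ncald were treated. The part of any of these genes in the low level of Ncald was not tested.

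**Figure D5:**
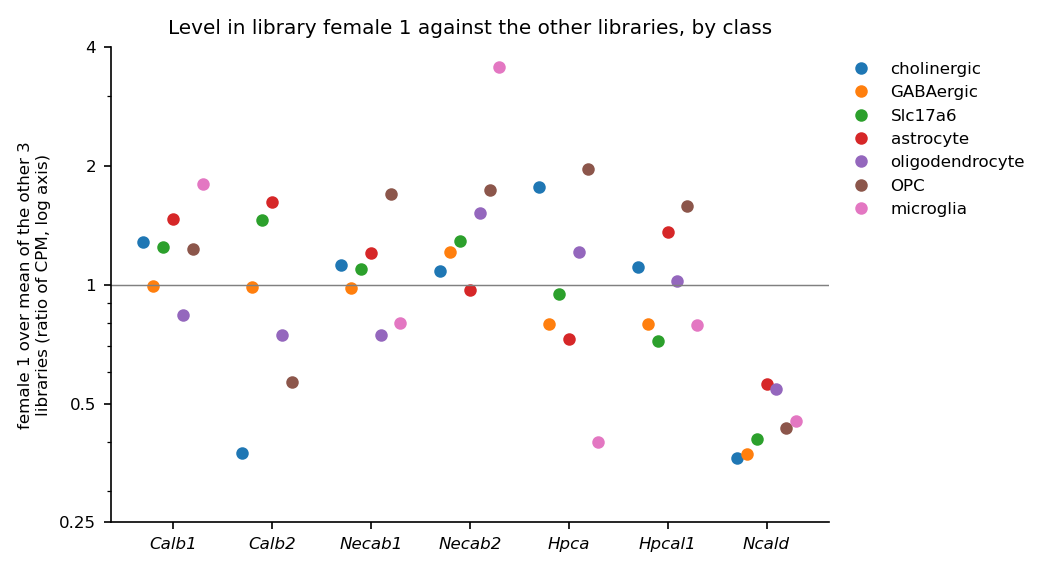
Level in female 1 over the mean level of the other 3 libraries (y axis, log scale) for 7 members (x axis) in 7 classes (colors), with values of 0 not drawn. Ncald lies between 0.364 and 0.561 in each class, whereas the other members spread around 1.

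Over 13 populations (7 classes and 6 GABAergic populations), the members followed different orders. Highest over lowest mean level was 15.04 for Calb1, 9.14 for Ncald, 8.01 for Hpcal1, 7.39 for Calb2, 7.02 for Hpca, 6.55 for Necab2 and 6.37 for Necab1. The means of Slc17a7, Drd1 and Sst nuclei leave out female 1, the library where Ncald was low. With female 1 left out throughout, Ncald averaged 551 CPM in OPCs, 548 in Slc17a7 nuclei and 67.4 in astrocytes. Calb1 led in Moxd1 nuclei at 180 ± 27.8 CPM (SD, n = 4), apart from the next, Drd2 nuclei at 63.9 ± 11.4, and was lowest in OPCs at 11.97 ± 2.4. Hpcal1 led in cholinergic nuclei at 81.0 ± 4.4 CPM, apart from Slc17a7 nuclei at 52.7 ± 1.8 (n = 3), and Calb2 led in Slc17a6 nuclei at 15.8 ± 3.9 CPM, apart from microglia at 6.4 ± 4.8. Necab2 in Drd2 nuclei, at 46.8 ± 9.4 CPM, was likewise apart from the next, Drd1 nuclei at 33.5 ± 3.8 (n = 3). For Ncald and Hpca each population overlapped with its neighbor in the order, and so did those of Necab1 except Slc17a6 nuclei and microglia.

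Genes with the most similar pattern were ranked by Pearson's r of the mean log2 level over the 13 populations, among 9400 genes. These values describe the same libraries and share their depth and free RNA, and the means of Slc17a7, Drd1 and Sst nuclei leave out female 1. Necab1 was most like Grm8 (r = 0.981), a metabotropic glutamate receptor gene, then Mecr (0.955) and Hspa12a (0.952). Hpca was most like Itpr1 (0.916), which encodes an inositol trisphosphate receptor that releases stored calcium, Arpp21 (0.89), a gene abundant in striatal projection neurons, and Ldb2 (0.88). Hpcal1 was most like Nr6a1 (0.92), Pkib (0.90) and Trpv2 (0.89), Calb1 like Psmd14 (0.92), Usp36 (0.90) and Ccnc (0.89), and Ncald like Col26a1 (0.92), Matcap1 (0.90) and Nav1 (0.89). Necab2 was most like Slc9a5 (0.95), Gm45159 (0.93) and Dtd1 (0.93), and Calb2 like Ggcx (0.80), Arhgap24 (0.78) and Rbck1 (0.76). For Pvalb, whose levels rest on a few UMIs, the 3 were Kat14 (0.81), Ankrd39 (0.81) and Gcnt7 (0.80). Between members, r was at most 0.68, for Necab1 and Hpca.

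Within single GABAergic nuclei, pairs of members were counted at 2000 UMIs per nucleus, as a description. Of 28 pairs, 10 were seen together in at least 10 nuclei of every library, a limit that leaves out pairs rarely seen together. For these 10, the observed number of nuclei with both genes over that expected from their separate shares lay between 0.531 and 1.36. Both ends came from Calb1 with Hpcal1, at 0.531 in male 1 and 1.36 in female 2, so the direction of that pair changed between libraries. Calb1 with Necab2 ranged from 1.09 to 1.25 and Calb1 with Necab1 from 1.045 to 1.19 over the 4 libraries. Among the pairs left out, Calb2 with Necab1 stood at 0.854, 0.469, 0.557 and 0.902 in male 1, male 2, female 1 and female 2, on 3 to 14 nuclei with both. Calb1 with Hpca, also left out, went the other way, at 1.66, 1.01, 1.14 and 2.37 on 6 to 14 nuclei. Such small counts set neither pair apart.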

How the data were processed

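UMI counts of genes by barcodes were deposited as 1 matrix per library. The submitters' processing notes name Cell Ranger 6.0.1, Seurat 5 and mm10; per the file headers, the matrices came from Cell Ranger 9.0.1 (both males), 7.0.0 (female 1) and 7.2.0 (female 2). The sources used here do not say whether intronic reads were counted. Per the labels' protocols, both version 2 and version 3 kits are named.

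The analysis used the 31899 genes common to all libraries. Classes needed at least 2 UMIs of Chat and Slc5a7 (cholinergic, taken first), Gad1 and Gad2, Slc17a6, Slc17a7, Gja1 and Aqp4 (astrocyte), Mog and Mag (oligodendrocyte), Pdgfra and Cspg4 (OPC) or Inpp5d and Csf1r (microglia), summed over each pair. Subsets needed 2 UMIs of Drd1, Drd2 or Moxd1 or 3 of Tshz1 or Sst. Nuclei in more than 1 class were dropped (5.16% to 13.2%), and no doublet caller was run. Counts were summed per library and population of at least 20 nuclei. They were tested with edgeR 4.0.16 (quasi-likelihood, TMM, filterByExpr, two-sided, Benjamini-Hochberg adjustment over all genes tested) in R 4.3.3, with library as a term for classes and subsets and none for sex. DESeq2 1.42.0 was an alternative. CPM is UMIs per 1000000 of a population's total. The fits were checked on simulated counts drawn from a shared mean profile with a fixed spread. Those counts lack the differences between the real libraries, so the check does not show how the sex test performs here. Named genes are the 8 members, the 3 genes most like each (mean of at least 10 CPM, pseudocount 1), and the 2 largest calls of each list and neuron class, of which 1 is not reported here. Members and lists were chosen with earlier results of these data known.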

Additional observations from a re-analysis of the deposited data

Results flagged for a closer look

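Among 69 sets of 4 library values (a gene in a class or GABAergic population, with at least 20 UMIs), 6 had a library whose gap to the nearest other exceeded Dixon's critical share of the range, where chance flags about 1 in 20 sets. For Ncald the library was female 1 in Slc17a6 nuclei (128 CPM, the others 304 to 327), in oligodendrocytes (93.8, the others 170 to 175) and in Moxd1 nuclei (104, the others 251 to 275). Calb1 in microglia was highest in female 1, at 50.9 CPM against 27.5 to 28.8. Calb1 in the remaining GABAergic nuclei was lowest in female 2, at 41.8 CPM against 50.0 to 51.1. Necab1 in GABAergic nuclei was highest in female 2, at 289 CPM, while the other 3 lay within 271.6 to 271.8.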

How the results depend on the processing

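Of 46 called member-by-comparison pairs, 30 kept their direction and their call under every alternative run. Of the values of these pairs under an alternative, 418 kept both, 47 lost the call and 1 reversed: Necab2 in Moxd1 nuclei, at 1.03 when nuclei were classed and then thinned to 2000 UMIs, an alternative chosen after seeing the data. Under that thinning, 7 of 20 neuron class and 8 of 25 subset comparisons were called, against 14 of 28 and 13 of 35. It leaves fewer UMIs and fewer members past the filter. Calls by sex, and for the sex effect between neuron classes, arose only with a female library left out. There the spread between libraries of a sex came from the males alone. In GABAergic nuclei the sex fold of Pvalb ranged from -0.69 to 0.36 with each library left out, reversing without male 2 (0.22) and female 2, and that of Hpca from -0.034 to 0.27, reversing without female 1. Leaving out the 8% of nuclei with the most UMIs also reversed Hpca (-0.014). Thinning before classing reversed Necab1 (-0.0028) and Hpca (-0.35). None of these reversed folds passed the threshold, and the causes were not tested. Median-ratio size factors moved the median of all genes by at most 0.08. With the replicate number as a block, 0 of 39 sex comparisons were called; the numbers only name libraries (correlation of deviations of male 1 and female 1 0.23 over 9150 genes). Classing after thinning left too few Slc17a7 and subset nuclei, so classes and subsets were not fitted that way. Pvalb and, in cholinergic nuclei, Hpca rest on few UMIs.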
